A study of Mus musculus with 6 samples.

Results

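The genes described here are 37 pan-neuronal genes, which encode parts of the neuronal cytoskeleton, of synaptic vesicles and secretory granules, and RNA-binding proteins of neurons. They were taken by gene symbol from a named list, and all 37 had a row among the 24015 named genes of the array. The list was drawn up with the ventral against dorsal comparison of these arrays known, so the differences between the tissues are given for its genes as a description. Where its genes passed the threshold of the fit over all genes, this is stated, but it is no test of the list. The arrays measured RNA of aortic tissue from C57Bl/6 mouse embryos at embryonic day 11.5, with 3 arrays of dorsal tissue (from beneath the notochord down to the aortic roof) and 3 of ventral tissue (directly under the aorta). Both tissues were cut by laser microdissection from stained, unfixed cryosections of the same embryos, and the labels name no treatment or altered allele and do not say whether an array pooled several embryos. The amounts of RNA were small (200 to 1000 pg) and were amplified before labelling, and 3 arrays per tissue limit the precision of every value.

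Neurons at this stage extend axons along microtubules built from tubulins and steered by microtubule-binding proteins such as doublecortin, MAP2 and the stathmins, and they stiffen the axon with neurofilaments. Kinesin motors carry vesicles down the axon, and the release machinery of SNARE proteins, synaptotagmins and complexins is made before synapses mature. In the trunk, such genes are expressed by neurons of the neural tube and spinal ganglia, and also by sympathetic neuroblasts, which come from the neural crest, gather beside the dorsal aorta and make noradrenaline. The 6 arrays had medians between 4.49 and 4.55 and correlated pairwise by 0.956 to 0.976 over probe sets. All values are deposited log2 levels, normalised with RMA (background correction, quantile normalisation and probe summary), and a level is compared only between arrays, never between genes.

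In ventral tissue most of these genes lay lower than in dorsal tissue, with a median log2 difference (ventral minus dorsal) of −0.27 over all 37 members against 0.00278 over all named genes. The difference was negative for 29 of 37 members and for 49.5% of all named genes, and 18 were lower in ventral tissue in each of the 3 same-numbered pairs, as were 14.4% of all named genes. For 16 members all 3 ventral arrays lay below all 3 dorsal arrays, which held for 5.97% of all named genes. For 3 members (Nefm, Nefh and Syt1) all 3 ventral arrays lay above, which held for 6.24%. Some margins were small, as for Nefh (dorsal 1 at 4.7685, ventral 2 at 4.7714) and Cplx1 (dorsal 1 at 5.0225, ventral 1 at 5.008). The counts below and above were 15 and 2 after shifting arrays to the same median (7.01% and 5.65% of all named genes). They were also 15 and 2 after cyclic loess (6.25% and 6.55%). Among the brighter genes that entered the fit, 15.4% had tissues that did not overlap in either direction. The members did not share one direction: 10 were at least 2.10-fold lower in ventral tissue (0.741% of all named genes were lower by 1 or more on the log2 scale), Nefm and Syt1 were 2.22-fold and 2.37-fold higher (1.05% of all were higher by 1 or more), and the remaining 25 differed by less than 1. A gene entered the fit if its 6-array mean reached 4.52, which is the median over probe sets, and 29 members did. Elavl4, Kif5a, Mapt, Prph, Rab3c, Scg2, Sv2a and Syt4 did not, and their differences are those of dim probe sets. In limma, fitted over the 12028 genes tested with the replicate number as a block, 3 members (Snap91, Kif21a and Gng3) passed an adjusted p of 0.05, where 0.515% of all genes tested did and 0.208% did on the dorsal side. As the members were picked with this contrast in view, nothing is read from that count, nor from which members passed in other settings. Because bulk tissue was measured, fewer neurons in a sample and less of these RNAs per neuron cannot be told apart.

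**Figure D1:**
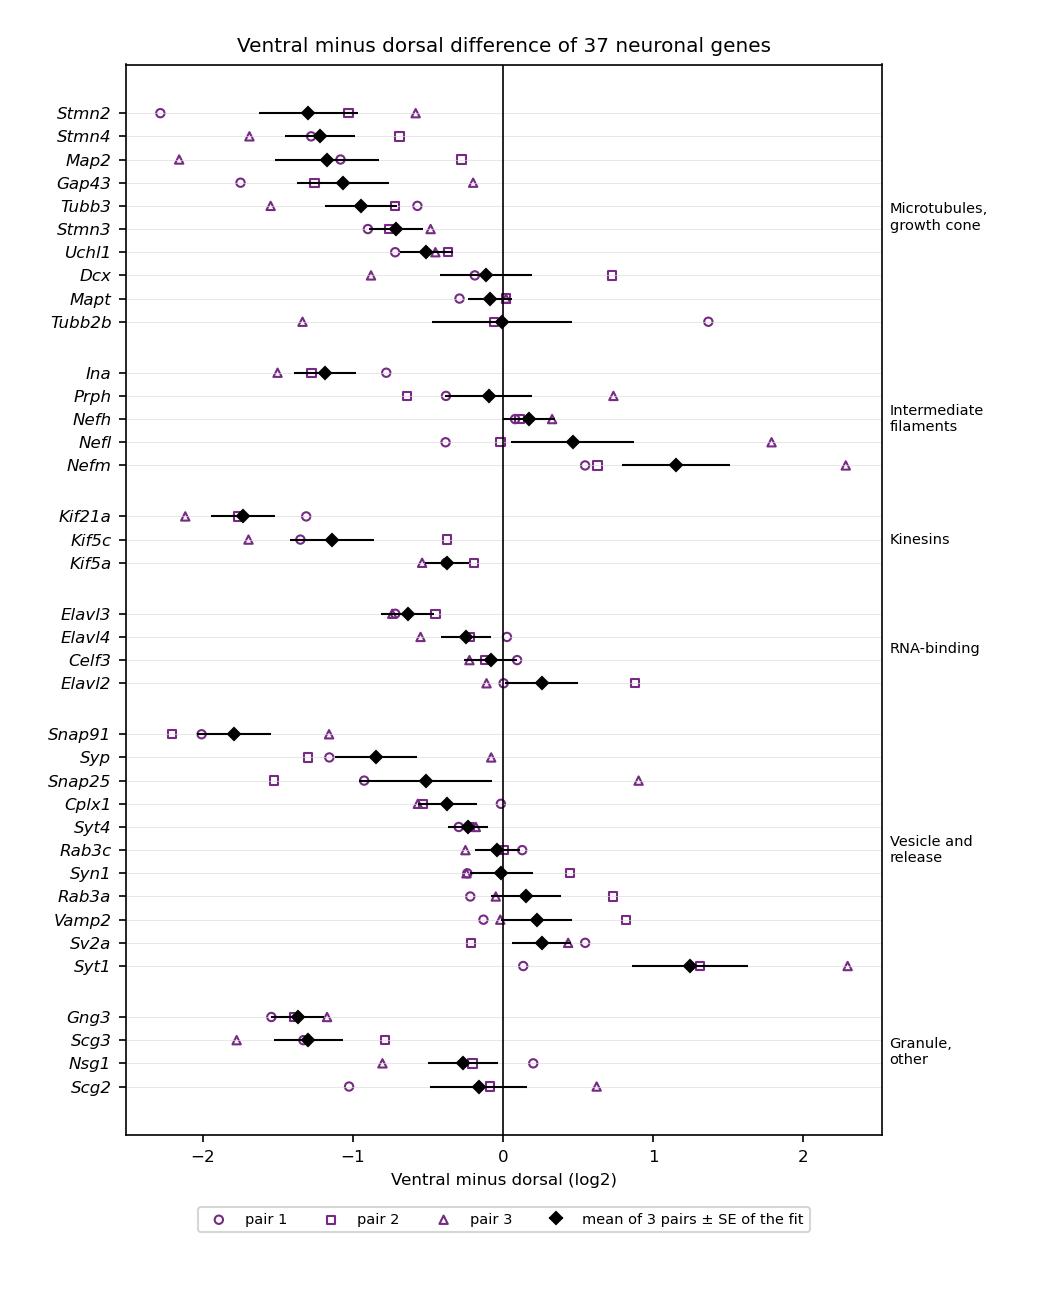
Ventral minus dorsal difference (log2, x axis) of each of the 37 genes, grouped by role. Open symbols are the 3 same-numbered pairs, and filled diamonds their mean with the standard error of the fit. Gng3, Kif21a and Snap91 lie to the left of 0 in every pair, whereas Nefm and Syt1 lie to the right in every pair.

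Snap91, which encodes an adaptor of clathrin-coated vesicles at nerve endings, gave 6.14, 5.83 and 5.20 on dorsal arrays 1, 2 and 3 and 4.13, 3.62 and 4.04 on ventral arrays 1, 2 and 3. All ventral values lay under the filter level and all dorsal values above it, so that Snap91 entered the fit through dorsal tissue. Its fold is that of a dim probe set in ventral tissue. The log2 difference was −1.79 ± 0.25 (SE of the fit), or 3.46-fold lower in ventral tissue. Kif21a, a kinesin of axons and dendrites, gave 6.18, 6.17 and 7.31 in dorsal and 4.87, 4.41 and 5.19 in ventral tissue. Its difference was −1.73 ± 0.21 (3.32-fold lower), with dorsal 3 standing above both other dorsal arrays, and without dorsal 3 it was −1.36. Gng3, a G-protein gamma subunit of neurons, gave 7.95, 8.09 and 8.01 in dorsal and 6.41, 6.70 and 6.83 in ventral tissue. Its dorsal arrays lay close together (SD 0.07, n = 3), and the difference was −1.37 ± 0.18 (2.58-fold lower). Without the block Kif21a no longer passed the threshold, and without the brightness filter none of the 3 did. Of the 3, Kif21a alone passed without replicate 1, Snap91 alone without replicate 3, and none without replicate 2.

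The promoters of these 3 genes are shown because they were the members that stood furthest on the dorsal side in the fit, and both promoters of Syt1 because it stood furthest on the ventral side. The sequences are the 250 bases before each annotated start in RefSeq (GRCm38.p6), all on the minus strand of the assembly and written 5′ to 3′ along the gene. The motifs in capitals do not overlap one another here. Capitals mark E-boxes (CANNTG), which proneural basic helix-loop-helix factors bind among others, and the right half-site (GGACAG or its complement CTGTCC) of RE1, the element bound by the repressor REST. The windows are chr9:86880709-86880958 for Snap91, chr15:91049952-91050201 for Kif21a, chr19:8839247-8839496 for Gng3, chr10:109010976-109011225 for the upstream start of Syt1 and chr10:109009112-109009361 for its downstream start.
Snap91: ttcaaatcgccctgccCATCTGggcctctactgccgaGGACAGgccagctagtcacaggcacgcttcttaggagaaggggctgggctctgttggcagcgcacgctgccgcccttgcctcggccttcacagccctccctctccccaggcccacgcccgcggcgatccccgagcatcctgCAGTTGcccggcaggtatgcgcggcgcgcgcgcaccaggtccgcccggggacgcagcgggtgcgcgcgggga
Kif21a: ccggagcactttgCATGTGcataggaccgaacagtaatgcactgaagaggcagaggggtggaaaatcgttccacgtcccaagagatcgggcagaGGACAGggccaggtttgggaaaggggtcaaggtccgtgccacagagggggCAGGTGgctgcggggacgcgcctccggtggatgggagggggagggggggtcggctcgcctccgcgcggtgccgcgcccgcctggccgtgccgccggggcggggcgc
Gng3: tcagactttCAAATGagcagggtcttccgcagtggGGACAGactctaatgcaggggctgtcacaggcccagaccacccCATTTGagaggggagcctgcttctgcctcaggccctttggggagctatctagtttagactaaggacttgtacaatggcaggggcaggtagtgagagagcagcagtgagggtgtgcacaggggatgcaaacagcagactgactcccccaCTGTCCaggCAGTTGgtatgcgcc
Syt1 upstream start: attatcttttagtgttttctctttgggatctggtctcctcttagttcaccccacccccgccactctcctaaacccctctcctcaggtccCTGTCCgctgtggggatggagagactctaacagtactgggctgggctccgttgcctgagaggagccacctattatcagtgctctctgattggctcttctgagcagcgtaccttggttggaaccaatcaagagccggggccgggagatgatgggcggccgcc
Syt1 downstream start: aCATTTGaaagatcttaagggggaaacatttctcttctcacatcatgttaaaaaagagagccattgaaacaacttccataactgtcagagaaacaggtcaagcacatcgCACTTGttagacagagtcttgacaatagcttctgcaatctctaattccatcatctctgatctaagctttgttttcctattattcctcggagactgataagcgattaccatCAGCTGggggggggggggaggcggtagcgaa
Snap91 and Kif21a each held 2 E-boxes and 1 RE1 right half-site, and Gng3 held 3 E-boxes and 2 right half-sites. The promoter of Scg3, the next member on the dorsal side with an entry, held neither motif and is not shown. The downstream start of Syt1 held 3 E-boxes and no half-site, and its upstream start 1 half-site and no E-box. Of the 37 members 24 had an entry in the table, with 41 promoters between them. An E-box stood in 63.4% of these 41 against 66.2% of all 32851 promoters searched in the same way on both strands, and the right half-site in 19.5% against 18.7%. The left half-site (CAGCACC) stood in 3 member promoters (7.32% against 5.73%), those of Scg2, Syn1 and Tubb3, and no member promoter held both half-sites spaced as in RE1 (0.0335% of all promoters did). The cAMP response element (TGACGTCA) stood in 6 member promoters (14.6% against 1.55%), which belong to 4 genes, Celf3, Kif5c, Scg2 and Syn1, and some promoter windows of Celf3 overlap one another. TATAAA stood in 17.1% of member promoters against 12.4% of all. Of these 4 genes only Kif5c differed by more than 1 on the log2 scale between the tissues. A match is a run of letters and no measured binding site, and no match says only that the letters are not in the window.

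Of the 10 genes of microtubules and the growth cone, all had a negative log2 difference (median −0.83; 49.5% of all named genes were negative). For 7 the ventral arrays lay wholly below the dorsal ones, which held for 5.97% of all named genes. Stmn2, a stathmin that destabilises microtubules in growth cones, gave 7.64, 7.63 and 7.85 in dorsal and 5.35, 6.60 and 7.27 in ventral tissue, a difference of −1.30 ± 0.33. The dorsal arrays lay within a narrow range and the ventral ones were spread, with ventral 1 lowest, and without ventral 1 the difference was −0.77. Its relatives Stmn4 (6.02, 5.21 and 6.58 against 4.74, 4.52 and 4.89; −1.22 ± 0.23) and Stmn3 (6.31, 6.40 and 6.79 against 5.41, 5.64 and 6.31; −0.71 ± 0.18) lay lower in ventral tissue too, although for Stmn3 ventral 3 was at almost the same level as dorsal 1. Gap43, a membrane protein of growing axons, gave 9.71, 9.73 and 9.38 in dorsal and 7.96, 8.47 and 9.18 in ventral tissue, a difference of −1.07 ± 0.31. As for Stmn2, ventral 1 was lowest and ventral 3 close to the dorsal arrays.

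Tubb3, the beta-tubulin used as a general mark of neurons, gave 8.83, 9.27 and 9.99 in dorsal and 8.26, 8.55 and 8.44 in ventral tissue, a difference of −0.95 ± 0.24 (1.93-fold lower). Map2, which binds dendritic microtubules, gave 5.88, 5.57 and 7.52 in dorsal and 4.79, 5.29 and 5.36 in ventral tissue, a difference of −1.17 ± 0.35. For both genes dorsal 3 was the highest array, and without it the differences were −0.63 for Tubb3 and −0.57 for Map2. Uchl1, an abundant ubiquitin hydrolase of neurons, differed by −0.51 ± 0.18 without overlap of the tissues, and by −0.32 without ventral 1. Dcx, the doublecortin of migrating neurons (−0.11 ± 0.31), and Tubb2b (−0.01 ± 0.47) differed by less than their standard errors. Dcx gave 6.10, 5.59 and 7.41 in dorsal and 5.92, 6.32 and 6.53 in ventral tissue, so that its sign rested on dorsal 3, and without that array the difference was 0.41. Tubb2b was high on dorsal 3 (9.15) and on ventral 1 (9.31) and lay between 7.81 and 8.11 on the other 4 arrays. The near-identical Tubb2a gave 6.72, 6.66 and 6.76 in dorsal and 6.90, 6.93 and 7.24 in ventral tissue (0.31 ± 0.18). Whether the probes of Tubb2b and Tubb2a share signal was not tested. Mapt, the axonal protein tau, was dim throughout (3.89 to 4.18).

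**Figure D2:**
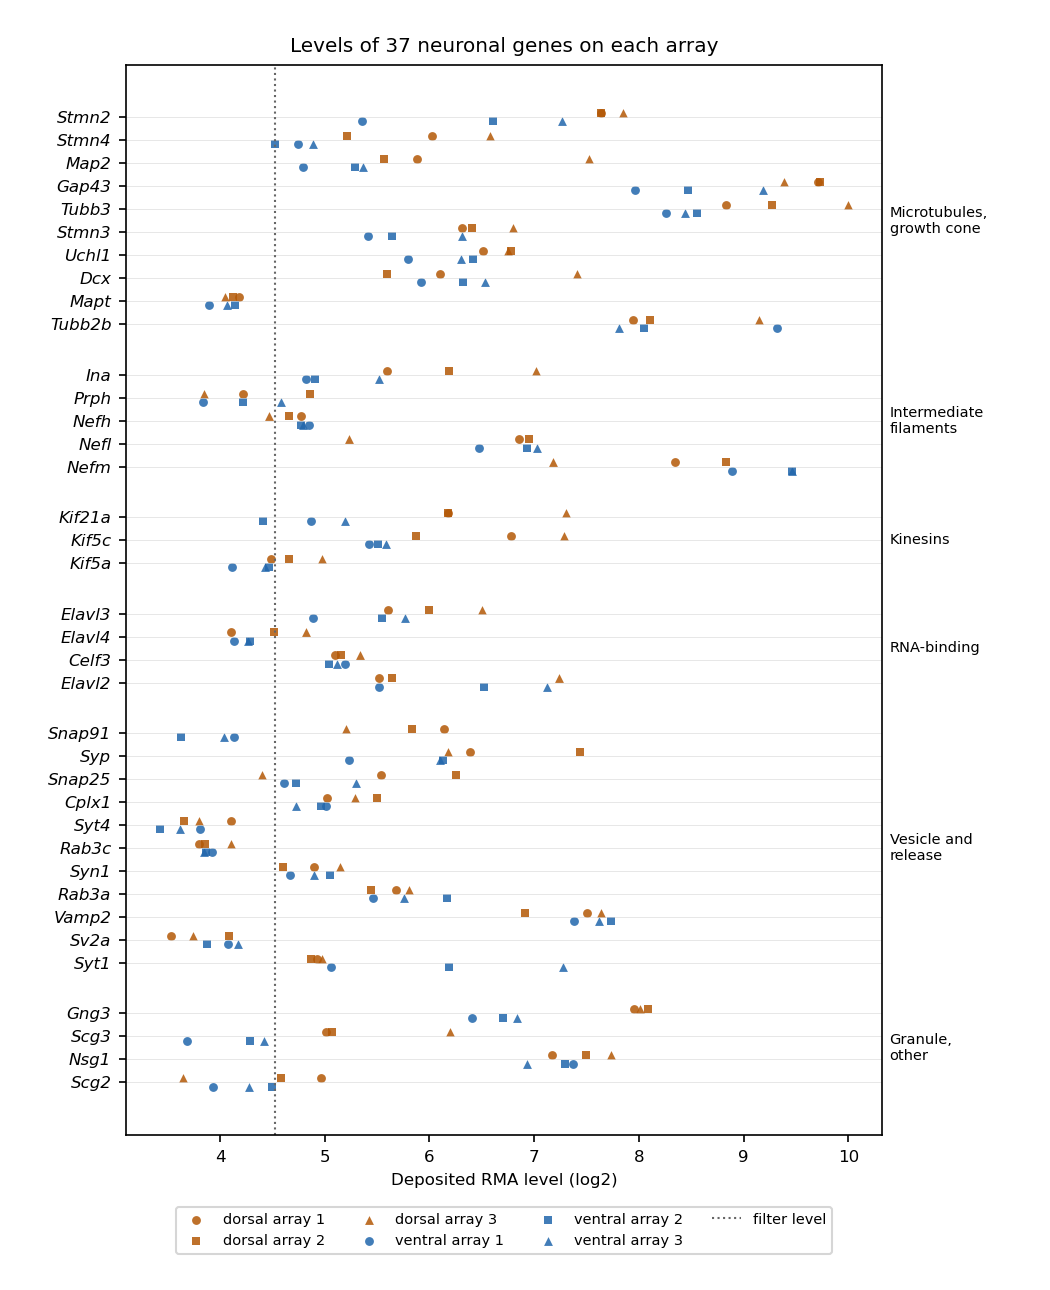
Deposited log2 level (x axis) of the 37 genes on each of the 6 arrays, with dorsal arrays in brown and ventral arrays in blue, and the replicate number as the symbol. The dotted line is the filter level of 4.52. For Gng3 and Stmn2 the dorsal arrays lie close together, and for Map2, Kif21a and Scg3 dorsal 3 lies apart above.

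The 5 intermediate filament genes were divided. Nefm, the middle neurofilament subunit, gave 8.35, 8.83 and 7.18 in dorsal and 8.89, 9.46 and 9.46 in ventral tissue, a difference of 1.15 ± 0.36 with no overlap. Nefl, the light subunit, gave 6.86, 6.95 and 5.24 in dorsal and 6.48, 6.93 and 7.02 in ventral tissue, a difference of 0.46 ± 0.41. In both genes, which lie close together on chromosome 14, dorsal 3 was the lowest of the 6 arrays. Without dorsal 3 the differences were 0.68 for Nefm and −0.09 for Nefl, so that the ventral excess of Nefl rested on that array. Ina, alpha-internexin, a filament protein that neurons make early, gave 5.60, 6.18 and 7.02 in dorsal and 4.82, 4.91 and 5.51 in ventral tissue, a difference of −1.19 ± 0.21. It ran against the neurofilament subunits, with its highest value on dorsal 3. Nefh, the heavy subunit, differed by 0.17 ± 0.17 near the filter level. Prph, peripherin, a filament of peripheral neurons, gave 4.22, 4.86 and 3.85 against 3.84, 4.22 and 4.58, lower in ventral tissue in pairs 1 and 2 and higher in pair 3.

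All 3 kinesins had every ventral array below every dorsal array, which held for 5.97% of all named genes. Besides Kif21a, Kif5c, a heavy chain of conventional kinesin in neurons, gave 6.78, 5.88 and 7.28 in dorsal and 5.43, 5.50 and 5.58 in ventral tissue, a difference of −1.14 ± 0.28, and −0.82 without dorsal 3. Kif5a, another neuronal heavy chain, differed by −0.37 ± 0.15 at a mean just under the filter level.

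The RNA-binding genes showed smaller differences. Elavl3, a neuronal Hu protein that stabilises messenger RNA, gave 5.61, 6.00 and 6.50 in dorsal and 4.89, 5.55 and 5.76 in ventral tissue, a difference of −0.64 ± 0.18. It was lower in ventral tissue in each pair, although ventral 3 lay above dorsal 1, and the difference was −0.40 without dorsal 3 and −0.38 without ventral 1. Elavl2, of the same family, gave 5.52, 5.65 and 7.23 in dorsal and 5.52, 6.52 and 7.12 in ventral tissue. Both tissues spanned nearly the same range and the difference was 0.26 ± 0.24, and 0.81 without dorsal 3. Elavl4 (−0.25 ± 0.17) and the splicing regulator Celf3 (−0.08 ± 0.18) differed by less than 0.5 in every alternative computed.

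Among the 11 genes of synaptic vesicles and release, the median log2 difference was −0.04, and 7 were negative and 4 positive. Only Snap91, Syp, Cplx1 and Syt1 had tissues that did not overlap in either direction, which held for 12.2% of all named genes. Syp, synaptophysin of the vesicle membrane, gave 6.39, 7.43 and 6.18 in dorsal and 5.23, 6.13 and 6.10 in ventral tissue, a difference of −0.85 ± 0.27. Dorsal 3 lay just above ventral 2 and ventral 3, and the difference was −0.46 without dorsal 2 and −0.55 without ventral 1. Snap25, a SNARE protein of the plasma membrane, gave 5.54, 6.25 and 4.40 in dorsal and 4.61, 4.73 and 5.30 in ventral tissue. It was lower in ventral tissue in pairs 1 and 2 and higher in pair 3 (−0.52 ± 0.44), and the difference was −1.01 without dorsal 3, the lowest array, and −0.09 without dorsal 2, the highest. Syt1, the calcium sensor of release, gave 4.93, 4.87 and 4.97 in dorsal and 5.06, 6.19 and 7.27 in ventral tissue. Its dorsal arrays lay close together (SD 0.05, n = 3), and the ventral ones ranged from near the dorsal level on ventral 1 to far above it on ventral 3 (1.25 ± 0.39, and 0.70 without ventral 3). Cplx1, a complexin that clamps fusion, differed by −0.37 ± 0.20. The small GTPase Rab3a (0.15 ± 0.23), the vesicle SNARE Vamp2 (0.22 ± 0.24) and the vesicle phosphoprotein Syn1 (−0.01 ± 0.21) differed by less than their standard errors. Rab3c, Sv2a and Syt4 stayed below the filter level in both tissue means, between 3.62 and 4.04.

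Among the remaining genes, Scg3, a granin that sorts cargo into secretory granules, gave 5.01, 5.07 and 6.20 in dorsal and 3.68, 4.28 and 4.42 in ventral tissue, a difference of −1.30 ± 0.23, and −0.91 without dorsal 3. All its ventral values lay under the filter level and all dorsal values above it, so it entered the fit through dorsal tissue. Scg2, another granin, gave 4.96, 4.58 and 3.65 against 3.94, 4.49 and 4.27 (−0.16 ± 0.32), with dorsal 3 lowest. The granins thus took opposite courses on that array. Nsg1, an endosomal protein of neurons, differed by −0.27 ± 0.23.

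Dorsal 3 therefore stood apart for many members, more often above than below the other dorsal arrays. It was the highest dorsal array for 22 of 37 members (59.5%), which held for 30.1% of all named genes. It was the lowest for 10 (27.0%), a smaller share than the 39.4% of all named genes. Measured against the mean of dorsal 1 and 2, dorsal 3 was at least 0.5 higher for 12 members (1665 of the 24015 named genes), led by Map2 (1.80), Elavl2 (1.65), Dcx (1.56) and Scg3 (1.16), and at least 0.5 lower for 7 (1792 of 24015), namely Nefl (−1.67), Snap25 (−1.50), Nefm (−1.41), Scg2 (−1.12), Snap91 (−0.79), Syp (−0.74) and Prph (−0.69). Both sets were formed after the values were seen, and filament genes and granins stand in each, Ina and Scg3 in the first and Nefl, Nefm, Prph and Scg2 in the second. Ventral 1 was the lowest ventral array for 26 of 37 members, which held for 30.3% of all named genes, with Syt1 (−1.67 from the mean of ventral 2 and 3), Stmn2 (−1.58) and Elavl2 (−1.30) furthest below. Without dorsal 3, and then without the block, 26 of 37 members had a negative difference and the median was −0.33. In that setting 7 members, and 0.92% of all named genes, were lower by at least 1 on the log2 scale. The threshold was passed by 1 member (Snap91) and by 39 of the 12028 genes tested.

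**Figure D3:**
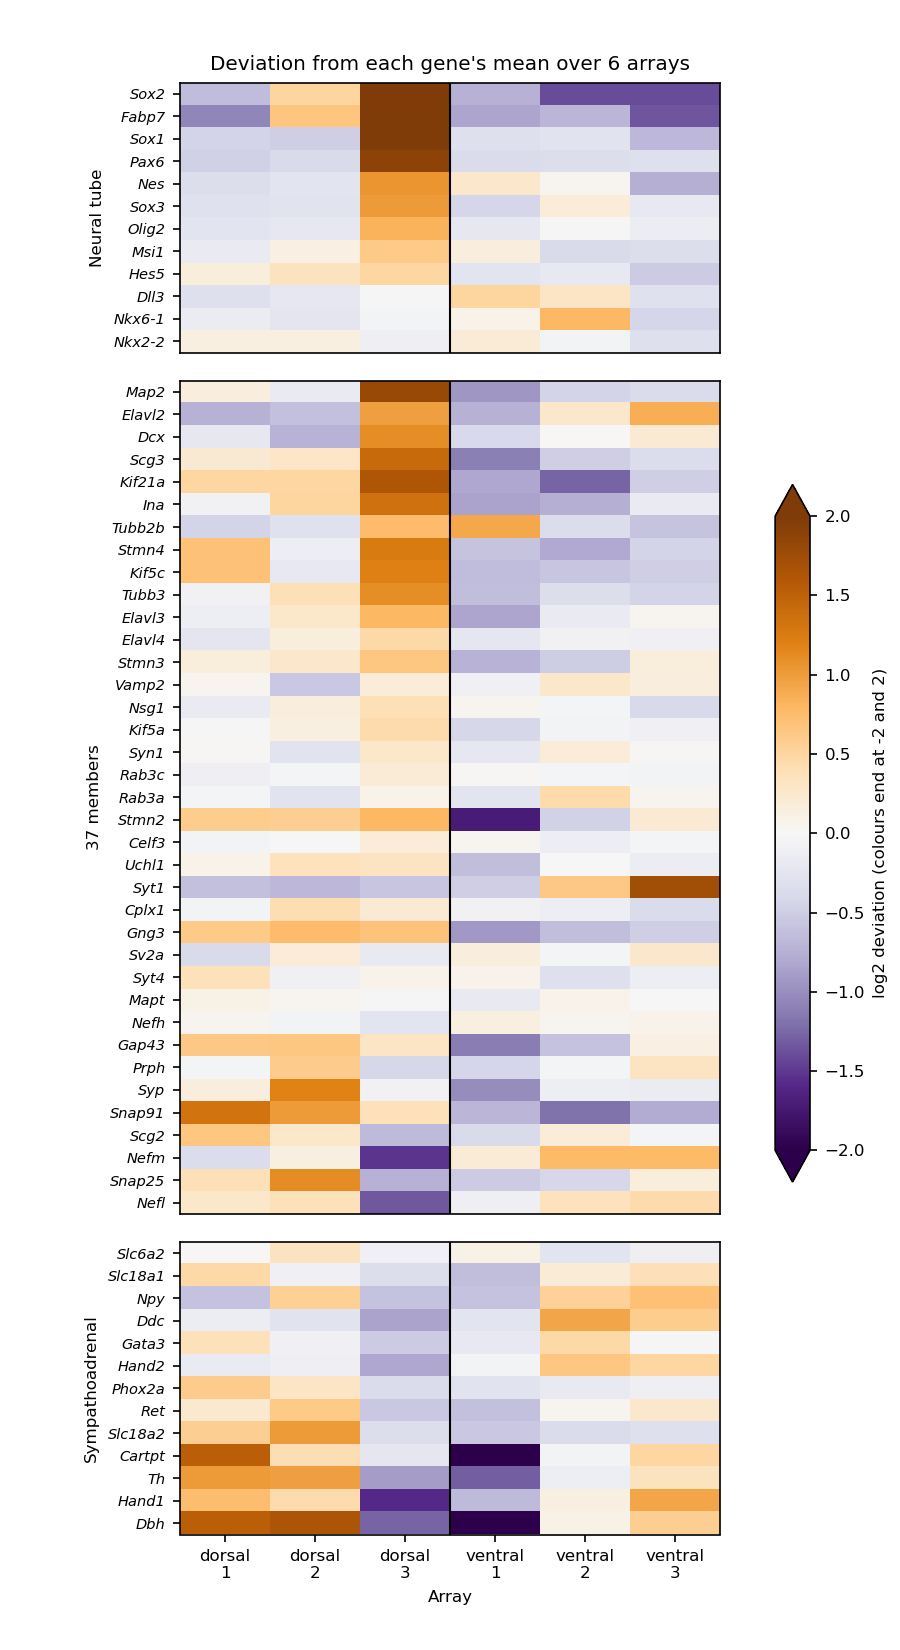
Deviation (log2, colour) of each gene from its own mean over the 6 arrays, for 12 neural tube progenitor genes (top), the 37 members (middle) and 13 sympathoadrenal genes (bottom), each block ordered by the value of dorsal 3 against dorsal 1 and 2. Members at the top of the middle block are high on dorsal 3, where Sox2 and Fabp7 are high, and those at its foot are low there, where Dbh and Th are low.

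Markers of the neural cell types that the tissue could hold moved across the same arrays. Sox2, a factor of neural progenitors, gave 5.36, 6.50 and 9.69 in dorsal and 5.26, 4.59 and 4.59 in ventral tissue. Fabp7, a fatty-acid binding protein of radial glia and glial precursors, gave 6.41, 8.13 and 10.75 against 6.63, 6.77 and 6.11. Sox1 and Pax6, singled out after their values were seen, reached 5.65 and 5.87 on dorsal 3 and stayed at or below 3.69 on each of the other 5 arrays. Of the 12 neural tube genes 11 were highest on dorsal 3 among the dorsal arrays, and their mean deviation from each gene's mean ran from −0.32 to 1.24 over dorsal and from −0.56 to −0.16 over ventral arrays. None of the 7 tested passed the threshold (Sox2, −2.37 ± 0.83, adjusted p = 0.377 in limma; Fabp7, −1.93 ± 0.82, 0.472; Hes5, −0.65 ± 0.20, 0.291; Msi1, −0.38 ± 0.27, 0.697). Mnx1, which defines motor neurons, lay below the filter level on all 6 arrays (3.26 to 3.53).

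Sympathoadrenal genes ran the other way on dorsal 3. Dbh, which makes noradrenaline from dopamine, gave 9.55, 9.66 and 6.75 in dorsal and 5.44, 8.13 and 8.59 in ventral tissue. Th, the first enzyme of that pathway, gave 7.01, 6.96 and 5.09 against 4.68, 5.87 and 6.33. Both were highest on dorsal 1 and 2 and lowest on ventral 1. Of the 14 named genes of the list, which shares Prph with the members, 13 were lowest on dorsal 3 among dorsal arrays and 13 lowest on ventral 1 among ventral arrays, and none of the 11 tested passed the threshold (Dbh, −1.27 ± 0.98, limma adjusted p = 0.729; Cartpt, a neuropeptide precursor, −1.14 ± 0.75, 0.677; Ddc, 0.84 ± 0.32, 0.432; Slc18a2, the vesicular monoamine transporter, −0.82 ± 0.30, 0.390; Th, −0.72 ± 0.61, 0.763). Without Prph the mean deviation of the list was 0.48 and 0.44 on dorsal 1 and 2, −0.65 on dorsal 3, −0.75 on ventral 1, and 0.16 and 0.33 on ventral 2 and 3. The 7 members low on dorsal 3 had mean deviations of 0.34, 0.67 and −0.63 in dorsal and −0.42, −0.07 and 0.10 in ventral tissue. The 12 members high on dorsal 3 had 0.03, −0.00 and 1.15, and −0.57, −0.42 and −0.19. Other lists were low on dorsal 3 too. All 8 sclerotome and cartilage genes were lowest there among dorsal arrays (mean deviations 1.03, 1.07 and 0.42 on dorsal 1, 2 and 3). The sensory neuron list had −0.21, 0.05 and −0.48. The part of neural tube or sympathoadrenal cells in the differences between the tissues was not tested.

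**Figure D4:**
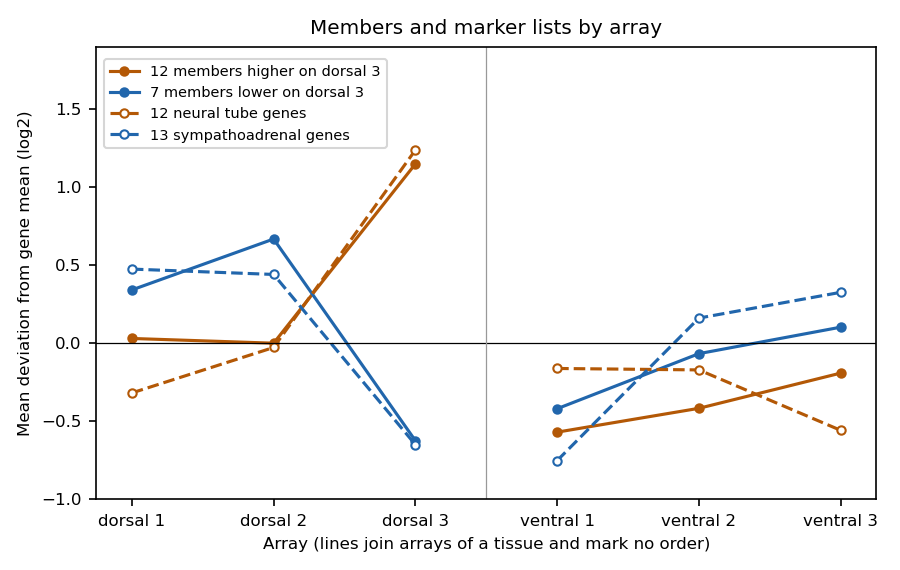
Mean deviation (log2, y axis) from each gene's mean over the 6 arrays, by array (x axis), for the 12 members at least 0.5 higher and the 7 members at least 0.5 lower on dorsal 3 than on the mean of dorsal 1 and 2 (solid), for 12 neural tube genes and for 13 sympathoadrenal genes without Prph (dashed). On dorsal 3 the neural tube genes and the first members stand at 1.24 and 1.15, and the sympathoadrenal genes and the second members at −0.65 and −0.63. The member sets were formed from their dorsal 3 values, so their side of 0 on that array follows from the choice and is no match to a marker list.

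The other neural marker lists were flatter. Of 10 named neural crest and Schwann precursor genes none of 7 tested passed, with Tfap2b, a factor of neural crest and sympathetic cells, at −1.58 ± 0.32 (limma adjusted p = 0.136), Gfra3 at −0.64 ± 0.21 (0.332), Tfap2a at −0.50 ± 0.21 (0.474) and Ednrb at 0.40 ± 0.18 (0.506), and their mean deviation ran from −0.00 to 0.34 over dorsal and −0.28 to 0.02 over ventral arrays. Sox10, which defines the neural crest glial lineage, lay between 4.05 and 5.02 on all arrays, with a mean below the filter level. Of 7 named sensory neuron genes none of 3 tested passed. Isl1, a LIM-homeodomain factor of sensory, motor and sympathetic neurons that mesenchyme can also express, gave 5.94, 6.60 and 5.07 in dorsal and 5.50, 8.18 and 8.44 in ventral tissue (1.50 ± 0.64, adjusted p = 0.474), with ventral 1 below ventral 2 and 3 as for Syt1. The other two were Runx1 (0.96 ± 0.33, limma adjusted p = 0.354) and Ntrk2 (0.85 ± 0.20, 0.191). Both had dorsal means of 4.25, below the filter level, and entered the fit through ventral tissue. The ventral means of Gfra3 (4.47) and Tfap2a (4.34) also lay below it, so those genes entered through dorsal tissue. Of 8 named motor neuron genes none of 2 tested passed (Aldh1a2, 0.77 ± 0.70, limma adjusted p = 0.789; Foxp1, 0.66 ± 0.22, 0.348). Lists for the surrounding tissues were chosen like the rest with results of these arrays known. Lower past the threshold in ventral tissue were 3 of 6 tested sclerotome and cartilage genes (Pax1, Chad and Col2a1), and 0.208% of all genes tested. Higher were 1 of 5 tested coelomic epithelium genes (Tcf21), and 0.308% of all genes tested. Chad had a ventral mean of 3.75 and Tcf21 a dorsal mean of 3.95, both below the filter level. Chad thus entered the fit through dorsal tissue and Tcf21 through ventral tissue.

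Further neuronal genes that are not members were read from lists of the same processes. Of 28 tested genes of the cytoskeleton and axon, 21 had negative and 7 positive log2 differences and none passed. Rtn1, a reticulon of the neuronal endoplasmic reticulum, had the largest of these (−1.05 ± 0.19, limma adjusted p = 0.0992), followed by the adhesion molecule Ncam1 (0.91 ± 0.29, 0.333), Dpysl5 (−0.67 ± 0.17, 0.216) and the kinesin Kif3c (−0.66 ± 0.23, 0.369). All ventral arrays of Rtn1 lay under the filter level (4.19, 4.18 and 4.49) and all dorsal arrays above it. Rtn1 thus entered the fit through dorsal tissue. The median over all 37 genes of that list was −0.27, the same as that of the members to 2 decimals. Over the tested genes alone the medians were −0.29 for that list and −0.52 for the members. At −1 or lower lay 1 gene of that list and 10 members, and the ventral arrays lay wholly below for 7 and 16. Of 16 tested genes of vesicles and secretion, 10 were negative, 6 positive and none passed. Amph, amphiphysin, a clathrin-coat protein as Snap91 is, gave 3.32, 3.53 and 3.58 in dorsal and 4.56, 6.29 and 6.16 in ventral tissue (2.19 ± 0.32, adjusted p = 0.0588). Its dorsal arrays all lay below the filter level, so that it entered the fit through ventral tissue, and its fold is that of a dim probe set in dorsal tissue. The adjusted p was under the threshold with a trend in the variance, without replicate 1 and, without the block, without ventral 1. The granin Chgb gave 7.57, 7.88 and 5.75 against 3.39, 6.95 and 7.36 (−1.17 ± 0.95, adjusted p = 0.752), with the order of arrays seen for Dbh, and Cpe, a prohormone-processing enzyme, differed by −1.10 ± 0.29 (0.236) and Chga by −0.73 ± 0.46 (0.653).

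None of 12 tested RNA-binding and splicing genes passed (8 negative, 4 positive), with Khdrbs2 at 0.83 ± 0.21 (limma adjusted p = 0.218), Nova1 at −0.55 ± 0.55 (0.810), Khdrbs3 at 0.54 ± 0.23 (0.477) and Celf2 at 0.49 ± 0.27 (0.598). None of 8 tested ion channel and receptor genes passed (4 negative, 4 positive). Gabra3, a GABA receptor subunit, was the furthest from 0 of these (1.44 ± 0.27, adjusted p = 0.117; 0.451 without the block), before the kainate receptor Grik2 (0.82 ± 0.53, 0.669), the sodium channel Scn3a (−0.58 ± 0.19, 0.339) and Gria2 (0.40 ± 0.31, 0.729). Of 21 named neuronal transcription factors only 4 were bright enough to be tested, Isl1, Neurog2 (−0.58 ± 0.32, 0.605), Insm1 (−0.29 ± 0.19, 0.675) and Scrt2 (−0.16 ± 0.22, 0.875), and none passed. Rest, whose protein binds RE1 and silences many neuronal genes outside neurons, gave 8.07, 7.65 and 7.61 in dorsal and 7.97, 8.10 and 8.15 in ventral tissue (0.30 ± 0.20, adjusted p = 0.691), so its tissues overlapped. None of the 8 genes of REST and its cofactors passed, among them Rcor2 (−0.65 ± 0.31, 0.533), Kdm1a (−0.28 ± 0.18, 0.666) and Rcor3 (−0.25 ± 0.21, 0.760). Over these 6 lists 12 genes had an unadjusted p under 0.05 in limma, 9 to 17 under the alternatives, and up to 2 passed the adjusted threshold under any one of them. The share of all genes tested with such an unadjusted p is not given here, so nothing is read from the 12.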

How the data were processed

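Per the labels' protocols, total RNA from laser-cut tissue of 20 µm cryosections was amplified with the NuGEN Ovation Pico system and labelled with biotin, and the series' design text names Gene ST mouse arrays from Affymetrix. The deposited values are log2 levels made with RMA in Affymetrix Expression Console, per the submitters' processing notes. Software versions were not stated in the sources used. Gene symbols come from the platform table (24015 of 24973 probe sets have 1 symbol, 958 are unnamed here), and promoters from RefSeq (GRCm38.p6). Ventral minus dorsal was estimated with limma 3.58.1 in R 4.3.3 (lmFit, eBayes without trend) over 12028 genes, two-sided, with Benjamini-Hochberg adjustment and the replicate number as a block, since per the labels each embryo gave both tissues. Whether a number marks an embryo is not stated, and deviations of same-numbered arrays correlated by only 0.0992, 0.0763 and 0.226 (numbers 1 to 3), against −0.153 to 0.0805 between different numbers. For members below the filter, standard errors come from the same model fitted over all 24015 named genes. The script was tested on simulated data. Members and lists were chosen with earlier results of these data known. Per-array values are given for the 15 tested members with the largest absolute difference, for the leading member of each role, and for others whose arrays differ, while of further lists the genes past the threshold, up to 4 tested genes with the largest absolute difference and the defining markers are named, some with per-array values. One defining marker is not reported here. The labels call the replicates biological, and whether they were separate embryos or pools is not stated.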

Additional observations from a re-analysis of the deposited data

How the results depend on the processing

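The count of all genes passing was 62 with the block and 59 with no replicate block, 10 without the brightness filter, 94 with a variance trend, 60 after shifting arrays to the same median and 62 after cyclic loess; it was 42 to 83 when a replicate number was left out and, without the block, 12, 22 and 39 without dorsal 1, 2 and 3 and 107, 12 and 15 without ventral 1, 2 and 3. Members lower in ventral tissue past the threshold numbered 3 with the block and 2 without it (Gng3 and Snap91, not Kif21a), 0 without the filter, 2 after either rescaling (Gng3 and Kif21a), and 0 to 2 when a replicate number or an array was left out. The members' median log2 difference ran from −0.436 (without dorsal 1) to −0.257, with −0.387 to −0.288 when a replicate number was left out (−0.387 without replicate 1), and 25 to 30 of 37 members were negative in all 15 settings. Of the 16 members named first by size, 6 of 224 alternative values moved by more than the spread of the pairs, each with 1 array left out, and none changed sign. Many of the 224 could not move. The value is a plain difference of means, so omitting the block or the filter or adding the trend leaves it unchanged. Leaving out 1 of 3 pairs always shifts it by less than the SD of the pairs. No stability is therefore read from that count. Among the other lists, calls appeared for 1 vesicle gene (Amph) with the trend, without replicate 1 and without ventral 1, and for 1 receptor gene (Grik2) without replicate 1. The signs of Dcx, Elavl2, Nefl, Prph, Scg2, Syn1, Tubb2b, Rab3a, Rab3c, Mapt and Vamp2 changed in at least 1 setting. With 3 arrays per tissue and amplified RNA, differences of dim genes are poorly resolved. No gene of the 6 other neuronal lists passed with the block or without it. The numbers are not shown to pair the arrays: the deviations of dorsal 2 followed those of ventral 1 (0.0805) slightly more closely than those of its own number (0.0763).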
